A study of Mus musculus with 12 samples.

Results

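The collagen and laminin chains measured in these livers were 50 genes, 40 collagens and 10 laminins, of 20422 genes read by the arrays. They were taken by symbol alone, as every gene whose probe sets carried exactly 1 symbol of the form Col, number, a, number, or Lama, Lamb or Lamc with a digit. By class they were 11 fibrillar chains, 16 basement membrane chains (6 type IV collagen and the 10 laminin chains) and 23 collagens of other classes. The annotation gives Lamb1 under its older symbol Lamb1-1, and it was counted as Lamb1. Another 4 collagens stand under older symbols that the rule does not take, and their smallest unadjusted p in any comparison was 0.12.

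The arrays compared 4 diets in the liver of C57Bl/6J mice, male and 20 weeks old, all fed 20% (w/w) partially hydrogenated vegetable shortening, which supplied trans fatty acids at 8.68% (w/w). The MSG + TFA group drank water with 0.75 g/L monosodium glutamate (MSG, a flavour enhancer), the ASP + TFA group water with 0.25 g/L aspartame (ASP, a sweetener), and the ASP + MSG + TFA group water with both at these concentrations. The TFA group drank plain water, so that every comparison asks what an additive adds to a trans fat diet, and there is no mouse on normal chow among them. Exposure began before birth, since the dams took the diets for 3 weeks before mating and the pups stayed on them after weaning at 4 weeks, and the mice were fasted overnight before the tissue was taken. Each diet had 15 mice in 3 arrays, and each array held RNA pooled from 5 livers, so a pool, not a mouse, is the unit of every value and error below. The liver identity was plain in every pool, with a mean of 12.9 to 13.0 on the log2 scale over 17 hepatocyte markers.

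Collagens are built from chains wound into a triple helix. Fibrillar collagens, with types I and III foremost in liver, form the fibres that accumulate in scarring, and are made there mainly by stellate cells once these turn into myofibroblasts and by portal fibroblasts. Type IV collagen forms a sheet-like network, and laminins, trimers of an alpha, a beta and a gamma chain, form another network with it in the basement membrane under epithelium, around vessels and, more sparsely, along the sinusoids. Whole liver is mostly hepatocytes, so a lower collagen value can come from fewer collagen-making cells or from less RNA in each, and these cannot be told apart in pooled tissue.

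A gene value here is the mean log2 intensity over the probe sets of a gene, which lie along its exons. The chains were read by 3 to 114 probe sets, with a median of 47.5 against 8 for all genes, and 2334 probe sets in total. Most of these were dim. Only 629 of them (26.9%) had a mean intensity above 6.89, the median of all probe sets of a single gene, and 47 of the 50 gene values lay below the lowest array median of 6.91. The exceptions were Col18a1, whose C-terminal fragment is endostatin, at 8.70 ± 0.08 on the TFA diet, Col14a1, a fibril-associated chain, at 8.07 ± 0.07, and Col27a1, a fibrillar chain, at 7.38 ± 0.07 (log2, SD, n = 3 pools). The differences below are those of gene values, with single probe sets given for some chains only.

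No collagen or laminin chain changed with diet at an adjusted p under 0.05. In limma's F test over the 4 diets 0 of the 50 passed, where 0.113% of all genes did, and 1 chain, Col5a3, had an unadjusted p under 0.05, where 9.16% of all genes had. With MSG 0 of 50 chains passed (0.0196% of all genes) and 1 had an unadjusted p under 0.05 (5.81%), with ASP 0 passed (0.284%) and 0 had an unadjusted p under 0.05 (10.1%), and with ASP + MSG 0 passed (0.0392%) and 2 had an unadjusted p under 0.05 (10.1%). The smallest adjusted p from limma was 0.817 for the chains with MSG, 0.601 with ASP and 0.437 with both additives. A p that misses the threshold does not show equal values, so the interval of each difference matters more. The 95% interval lay within 1.4-fold either way (0.49 on the log2 scale) for 49 of 50 chains with each of MSG, ASP and ASP + MSG. All 11 fibrillar and all 16 basement membrane chains were among them. The chains outside were Col10a1 with MSG (interval -0.11 to 0.54), Col8a1 with ASP (-0.52 to 0.20) and Col8a1 with ASP + MSG (-0.16 to 0.56), which are read by 3 and 5 probe sets. This narrow spread holds for the mean over the probe sets of a gene. With the median over probe sets in its place, 37, 37 and 35 of the 50 intervals lay within 1.4-fold with MSG, ASP and ASP + MSG, with brighter probe sets only 33, 36 and 36, and with the mean of skeletal muscle markers as a covariate 29, 27 and 39. The plot of differences by class shows the intervals for the mean over probe sets, and the 3 comparisons share the TFA pools.

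**Figure D1:**
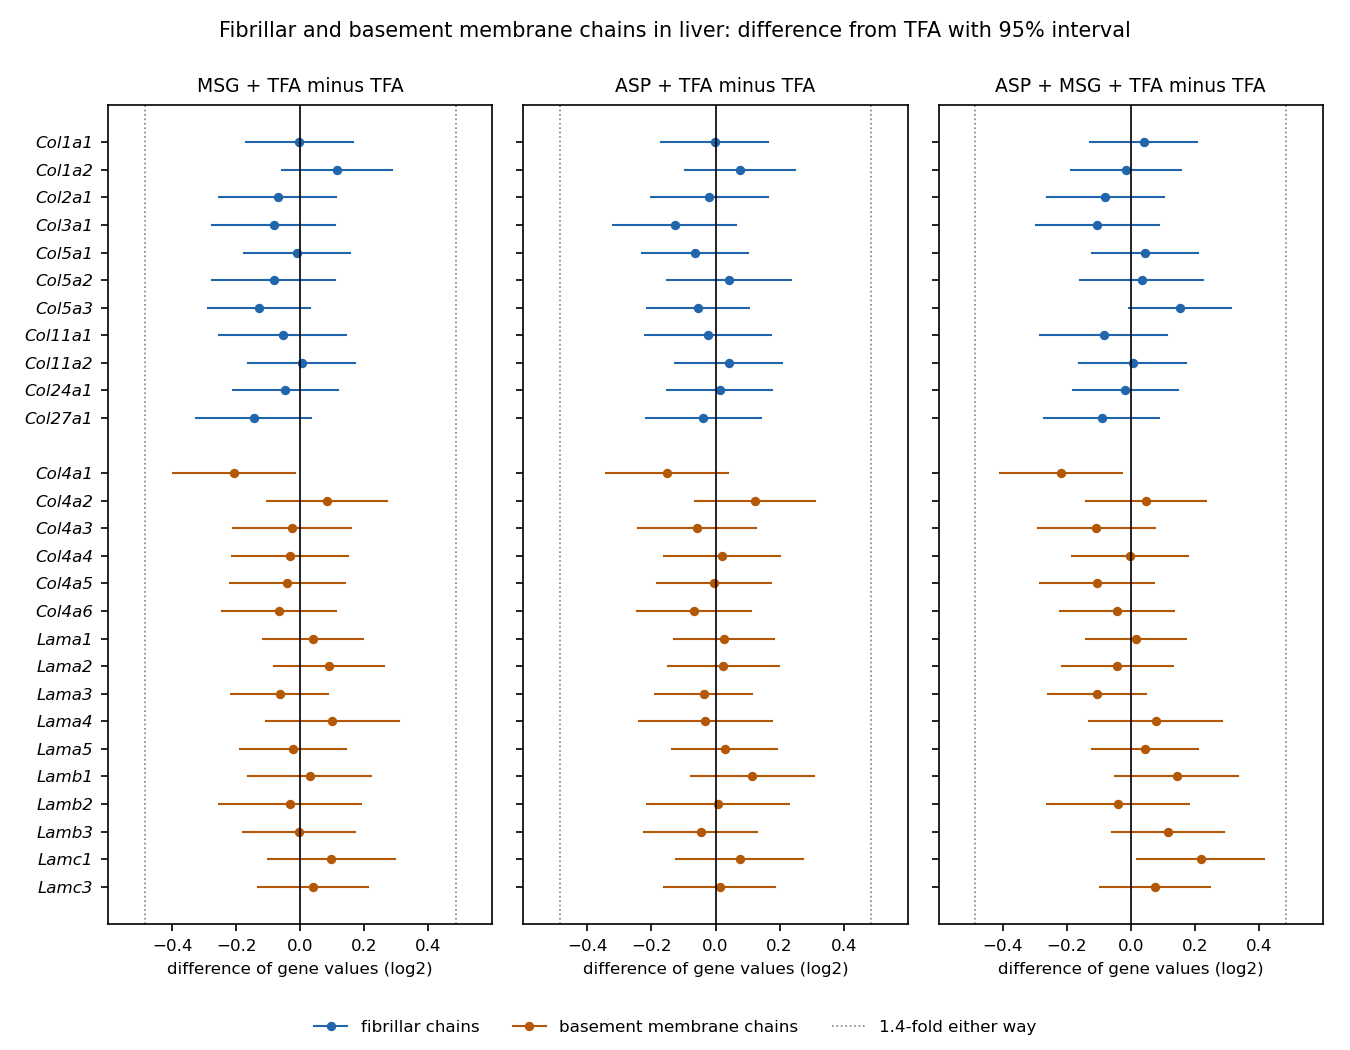
Difference of the gene value (log2) from TFA, x axis, for the 11 fibrillar (blue) and 16 basement membrane chains (orange), with points for the estimate and lines for limma's 95% interval over 12 arrays. All lines end inside the dotted 1.4-fold limits, and only those of Col4a1 (with MSG and with ASP + MSG) and Lamc1 (with ASP + MSG) leave 0.

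The gene values of type I collagen, the main fibre former, overlapped between all 4 diets for its alpha 1 chain and differed little for its alpha 2 chain. Col1a1, its alpha 1 chain, was 6.42, 6.28 and 6.40 in the MSG + TFA pools, 6.40, 6.31 and 6.39 in the ASP + TFA pools, 6.34, 6.47 and 6.42 in the ASP + MSG + TFA pools, and 6.44, 6.31 and 6.37 in the TFA pools (log2). The difference from TFA for Col1a1 with ASP + MSG was 0.04 ± 0.08 (SE), and its 95% interval of -0.13 to 0.21 was the widest reach from 0 that Col1a1 had in the 3 comparisons. Col1a2, the partner chain in the type I trimer, was 6.31, 6.37 and 6.36 in the MSG + TFA pools and 6.29, 6.21 and 6.19 in the TFA pools. The 3 MSG + TFA pools of Col1a2 stood just above all TFA pools, with a difference of 0.11 ± 0.08 (SE, 95% interval -0.06 to 0.29). With ASP + MSG Col1a2 was 6.13, 6.35 and 6.17, on both sides of TFA. The gene value of Col1a1 averages probe sets of opposite direction. Its 18 brighter ones averaged 0.14, 0.19 and 0.15 with MSG, ASP and ASP + MSG, with 13, 12 and 13 above 0. The 34 dimmer ones averaged -0.08, -0.11 and -0.02. For Col1a2 the 18 brighter averaged 0.17, 0.23 and 0.05, and the 34 dimmer 0.08, -0.003 and -0.05.

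Col3a1, the single chain of type III collagen, which forms thin fibres with type I, was lower in all 3 ASP + TFA pools (6.37, 6.30 and 6.42) than in the TFA pools (6.44, 6.46 and 6.57). The difference was -0.13 ± 0.09 (SE), with an unadjusted p of 0.177 and an adjusted p of 0.694 in limma. The other additive diets gave Col3a1 values that overlapped those of TFA, at 6.52, 6.24 and 6.46 with MSG and 6.39, 6.31 and 6.46 with ASP + MSG. Col5a1 and Col5a2, chains of the type V collagen that sits inside type I fibrils, differed from TFA by -0.01 and -0.08 with MSG, by -0.06 and 0.04 with ASP and by 0.04 and 0.03 with ASP + MSG (log2). Col27a1, the brightest fibrillar gene value, differed by -0.15 with MSG, -0.04 with ASP and -0.09 with both additives. With MSG 9 of 11 fibrillar chains had a difference below 0, where 48.7% of all genes had, and their median was -0.055 against 0.0036 for all genes. With ASP 7 of 11 were below 0 (42.7% of all genes), with a median of -0.019, and with ASP + MSG 6 of 11 (47.8%), with a median of -0.014.

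Basement membrane chains held the only 2 members with an unadjusted p under 0.05 against TFA. These were 1 of 16 with MSG (6.25%, against 5.81% of all genes) and 2 of 16 with ASP + MSG (12.5%, against 10.1%). With ASP there were 0 of 16 (against 10.1%), so the class was not above the share of all genes by more than 1 chain. Col4a1, an alpha chain of the common type IV network, was 6.44, 6.25 and 6.22 in the MSG + TFA pools, 6.33, 6.29 and 6.47 in the ASP + TFA pools, 6.26, 6.31 and 6.32 in the ASP + MSG + TFA pools, and 6.44, 6.63 and 6.47 in the TFA pools. The ASP + MSG + TFA pools all lay below the TFA pools, while 1 pool of each single additive reached into the TFA range. The difference for Col4a1 was -0.21 ± 0.09 (SE, 95% interval -0.40 to -0.02, unadjusted p 0.035, adjusted p 0.817 in limma) with MSG. With ASP + MSG it was -0.22 ± 0.09 (SE, 95% interval -0.41 to -0.03, unadjusted p 0.028, adjusted p 0.437 in limma), and with ASP -0.15 ± 0.09 (SE, unadjusted p 0.113 in limma). Leaving out 1 pool at a time gave Col4a1 unadjusted p-values of 0.0120 to 0.152 with MSG and 0.0223 to 0.130 with ASP + MSG. With the median over its probe sets the Col4a1 difference was -0.49 with MSG, past the 1.4-fold limit (unadjusted p 0.0046, adjusted p 0.576 in limma), and -0.40 with ASP + MSG (0.016 and 0.432).

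The TFA pools also held the most skeletal muscle transcripts. The mean of 14 skeletal muscle markers was 6.46, 5.99 and 5.98 in the MSG + TFA pools, 5.93, 6.02 and 6.15 in the ASP + TFA pools, 6.19, 6.54 and 6.09 in the ASP + MSG + TFA pools, and 6.69, 7.18 and 6.98 in the TFA pools. TFA pool 2 was highest in both the muscle mean and Col4a1. Within TFA and within MSG + TFA the 3 pools had the same order in both. ASP + TFA pool 3 was the highest of its diet in both, while ASP + TFA pools 1 and 2 stood in opposite orders. The ASP + MSG + TFA pools did not share an order, and across diets the order was not the same throughout. Col4a1 was 6.44 in TFA pool 1 (muscle mean 6.69) and 6.47 in ASP + TFA pool 3 (6.15). It was 6.31 in ASP + MSG + TFA pool 2 (6.54). Of the 14 muscle markers, 13 (MSG), 12 (ASP) and 12 (both) were lower than on TFA at an unadjusted p under 0.05, and 9 passed the adjusted threshold with ASP. With the muscle mean as a covariate the Col4a1 difference was 0.05 with MSG (unadjusted p 0.739 in limma), 0.14 with ASP (0.383) and -0.002 with ASP + MSG (0.989). No pool of an additive diet reached the lowest TFA pool in the muscle mean, so the covariate and the diet overlap in what they describe.

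Col4a2 is the partner of Col4a1 in the same trimer, and both genes are transcribed from a common start region in opposite directions. Unlike those of Col4a1, its means on the 3 additive diets all lay above that on TFA. Col4a2 was 6.08, 6.11 and 6.32 in the MSG + TFA pools, 6.21, 6.21 and 6.23 in the ASP + TFA pools, 6.13, 6.07 and 6.21 in the ASP + MSG + TFA pools, and 5.97, 6.12 and 6.17 in the TFA pools. In all 3 ASP + TFA pools Col4a2 exceeded its highest TFA value, with a difference of 0.12 ± 0.09 (SE, 95% interval -0.06 to 0.31), and the other diets overlapped TFA. In RefSeq (GRCm38.p6) the genes of the pair overlap head to head by 85 bases on chromosome 8, and their promoter windows of 300 bases share 78 bases (chr8:11312777-11312854). The windows are shown to set out this shared start, 5′ to 3′ on the strand of each gene, with the shared bases in capitals. The Col4a1 window is chr8:11312777-11313076 on the minus strand and the Col4a2 window is chr8:11312555-11312854 on the plus strand.
Col4a1: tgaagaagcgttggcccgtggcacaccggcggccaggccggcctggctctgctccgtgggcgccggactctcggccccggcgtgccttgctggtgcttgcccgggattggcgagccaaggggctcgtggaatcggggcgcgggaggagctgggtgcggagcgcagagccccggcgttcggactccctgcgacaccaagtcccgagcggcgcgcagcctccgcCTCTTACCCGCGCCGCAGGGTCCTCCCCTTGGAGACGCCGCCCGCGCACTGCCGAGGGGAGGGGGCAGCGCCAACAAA
Col4a2: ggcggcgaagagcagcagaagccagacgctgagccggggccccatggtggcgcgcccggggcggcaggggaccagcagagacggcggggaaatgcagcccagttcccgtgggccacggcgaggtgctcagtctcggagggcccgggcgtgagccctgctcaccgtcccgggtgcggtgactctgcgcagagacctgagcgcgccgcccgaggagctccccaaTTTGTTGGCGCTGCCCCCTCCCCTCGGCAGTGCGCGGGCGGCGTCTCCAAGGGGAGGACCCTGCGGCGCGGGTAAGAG
The capitals at the end of one window are the reverse complement of those at the end of the other. The share of windows with the letters CCAAT on either strand was 37.4% over all 32851 RefSeq promoter windows. CCAAT was found in 13 of the 37 chains that have a window, or 31.7% of their 41 windows, Col4a1 and Col4a2 included. GGGCGG, the GC box, was found in 22 of 37 chains, or 56.1% of their 41 windows, against 35.7% of all windows, and in both of these and Col5a3. TATAAA was found in 5 of 37, or 12.2% of windows against 13.6%, Col3a1 among them. A match describes letters in a window and no binding was measured here. The other type IV chains also lie in head-to-head pairs, Col4a3 and Col4a4 on chromosome 1 and Col4a5 and Col4a6 on chromosome X.

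Those other 4 type IV chains, which belong to networks of more specialised basement membranes such as that of the kidney, had low gene values and small differences. Their TFA means were 5.78 for Col4a3, 5.89 for Col4a4, 5.72 for Col4a5 and 5.53 for Col4a6. With ASP + MSG, Col4a3 (5.72, 5.71 and 5.57) and Col4a5 (5.63, 5.57 and 5.65) were below all TFA pools (5.73, 5.81 and 5.78 for Col4a3, 5.76, 5.73 and 5.68 for Col4a5), with differences of -0.11 and -0.10 and unadjusted p-values of 0.232 and 0.227 in limma. Col4a4 and Col4a6 overlapped TFA in this comparison, with differences of -0.003 and -0.04.

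Among laminins, Lamc1, the gamma 1 chain shared by most laminins, gave the largest difference. Lamc1 was 6.67, 6.71 and 6.50 in the MSG + TFA pools, 6.63, 6.48 and 6.71 in the ASP + TFA pools, 6.76, 6.69 and 6.79 in the ASP + MSG + TFA pools, and 6.54, 6.64 and 6.42 in the TFA pools. The ASP + MSG + TFA pools were all above the TFA pools, and the single additives overlapped them. The difference with ASP + MSG was 0.22 ± 0.09 (SE, 95% interval 0.02 to 0.42, unadjusted p 0.033, adjusted p 0.449 in limma), and leaving out 1 pool at a time gave unadjusted p-values of 0.0205 to 0.136. With the median over its probe sets the Lamc1 difference was 0.42 (unadjusted p 0.019 in limma), with brighter probe sets only 0.24 (0.191) and with the muscle covariate 0.26 (0.110). Lamb1, the beta chain that pairs with Lamc1 in the laminins of many vessels, was 6.28, 6.32 and 6.50 with ASP + MSG and 6.18, 6.21 and 6.28 on TFA. That difference was 0.14 ± 0.09 (SE, 95% interval -0.05 to 0.34). With ASP Lamb1 (6.29, 6.38 and 6.35) stood above all TFA pools, with a difference of 0.12 ± 0.09 (SE). Its probe sets diverged by brightness. The 10 brighter than the median of all probe sets averaged 0.48 with ASP (10 above 0) and 0.43 with ASP + MSG (9 above 0). The 24 dimmer ones averaged -0.04 and 0.03. The smallest adjusted p of a Lamb1 probe set in limma was 0.342 with ASP and 0.581 with ASP + MSG.

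The alpha chains carry the sites that bind cell receptors. Lama4, the alpha chain of vessel walls, differed from TFA by 0.10 with MSG, -0.03 with ASP and 0.08 with both additives, and Lama5, the other main vascular and epithelial alpha chain, by -0.02, 0.03 and 0.05 in the same order (log2). Lama2, the alpha chain best known from muscle, differed by 0.09, 0.02 and -0.04. Lama3, an epithelial alpha chain, was below all TFA pools with MSG (5.99, 5.96 and 5.93) and with ASP + MSG (5.92, 5.92 and 5.91), against 6.02, 6.04 and 6.01 on TFA. Its differences were -0.06 and -0.10, at unadjusted p-values of 0.381 and 0.163 in limma. Lamb2, the beta chain of several adult basement membranes, differed by -0.03 with MSG, 0.007 with ASP and -0.04 with both additives. Over the 16 basement membrane chains 9 of 16, 7 of 16 and 8 of 16 were below 0 with MSG, ASP and ASP + MSG. Their medians were -0.013, 0.010 and 0.0072, against 0.0036, 0.022 and 0.0072 for all genes.

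**Figure D2:**
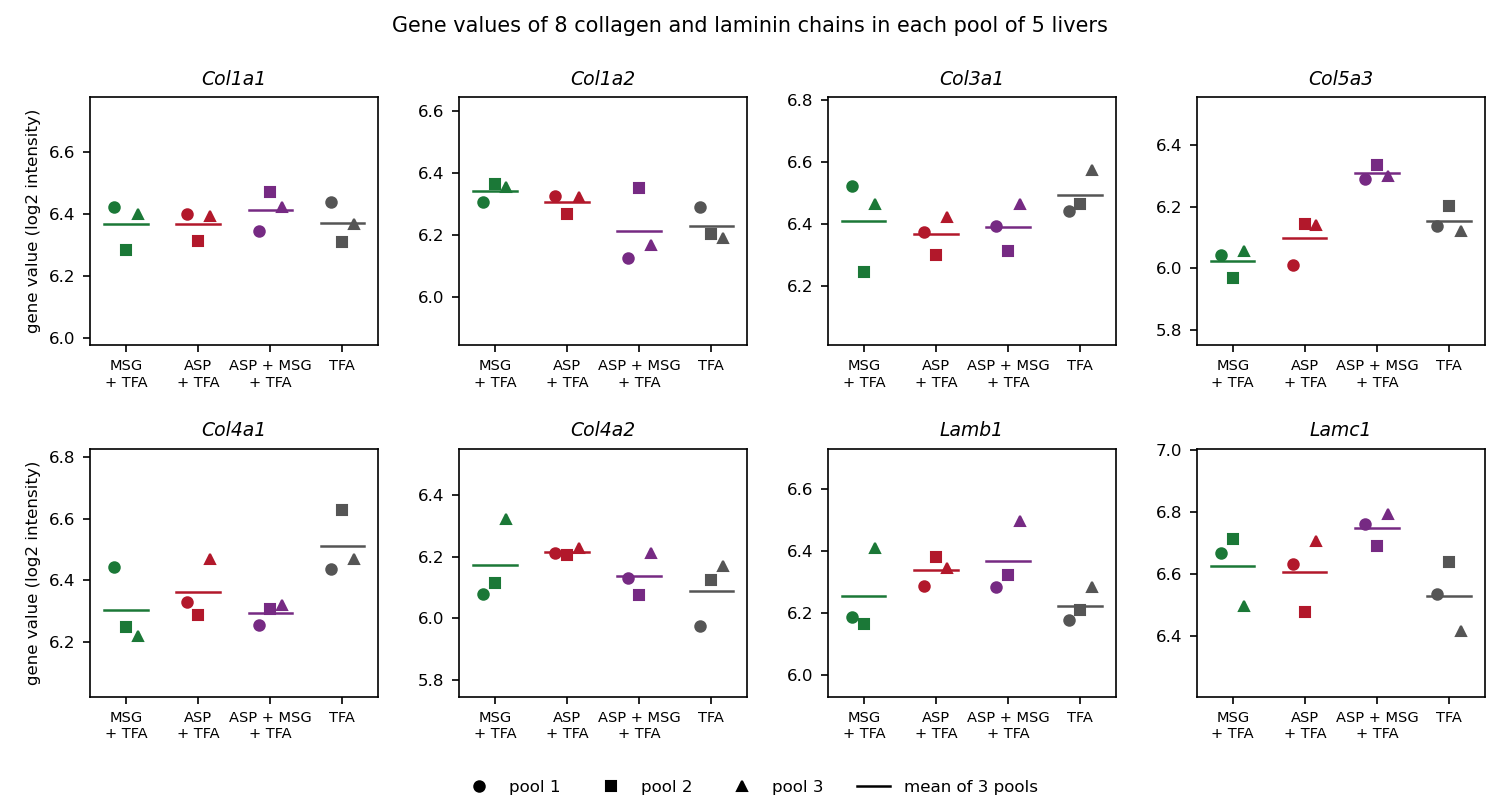
Gene value (log2 intensity, y axis) of 8 chains in each pool of 5 livers, by diet, with a symbol per pool and a bar for the mean of 3 pools, over an equal span of 0.8 on each y axis. Col1a1 overlaps in all diets, the ASP + MSG + TFA pools of Col4a1 lie below the TFA pools, and those of Lamc1 and Col5a3 lie above them.

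Counted over all 50 chains, few had all 3 pools of an additive diet on one side of all TFA pools. With MSG 2 chains were above TFA in this sense (Col10a1 and Col1a2, where 6.45% of all genes were) and 4 below (Col5a3, Col6a1, Col6a3 and Lama3, against 6.75%). With ASP 2 were above (Col4a2 and Lamb1, against 8.48%) and 2 below (Col22a1 and Col3a1, against 4.92%). With ASP + MSG 4 were above (Col5a3, Lamb3, Lamc1 and Lamc3, against 10.0%) and 4 below (Col4a1, Col4a3, Col4a5 and Lama3, against 7.90%). Lama3 was the only chain below TFA with both MSG and ASP + MSG, and Col5a3 the only one on opposite sides.

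The probe sets along a chain often disagreed, and for Col4a1 the mean difference was smaller over the brighter ones. Of its 51 probe sets, 34 were below 0 with MSG, 8 of them at an unadjusted p under 0.05, and 2 were above 0 at that p. With ASP + MSG 31 of 51 were below 0, 9 at an unadjusted p under 0.05, with 1 above. Of the 15 probe sets brighter than the median of all probe sets, 8 were above 0 with MSG and 9 with ASP + MSG, and their mean differences were -0.13 and -0.09. The 36 dimmer ones averaged -0.24 and -0.27. Large falls also occurred among the brighter ones, at -1.13 with MSG (mean intensity 8.49) and -0.92 with ASP + MSG (mean intensity 11.70). For Lamc1 with ASP + MSG, 18 of 28 probe sets were above 0, 1 of them at an unadjusted p under 0.05 (a dim one at 1.54), with 0 below at that p. The means were 0.24 over the 9 brighter, of which 5 were above 0, and 0.21 over the 19 dimmer ones. No probe set of any chain passed limma's adjusted threshold in any comparison (0 of 2334), where 0.00943% of all probe sets did with ASP and 0.00141% with ASP + MSG. At an unadjusted p under 0.05 there were 176 with MSG (7.54%, against 6.47% of all probe sets), 214 with ASP (9.17%, against 9.81%), 202 with ASP + MSG (8.65%, against 7.83%) and 200 for the interaction of the additives (8.57%, against 8.19%).

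**Figure D3:**
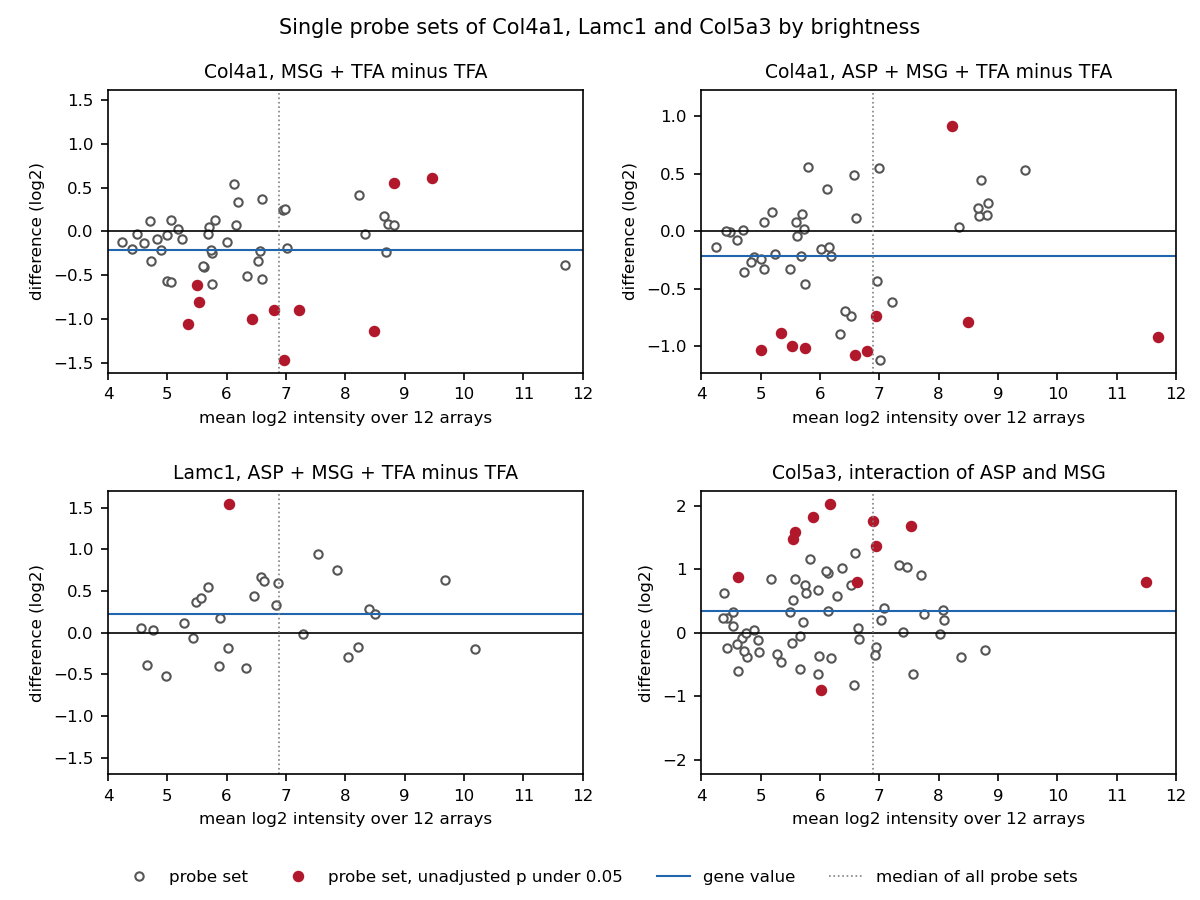
Difference of single probe sets (log2, y axis) against their mean log2 intensity over 12 arrays (x axis) for Col4a1, Lamc1 and Col5a3. Filled points have an unadjusted p under 0.05, the blue line is the gene value and the dotted line the median of all probe sets at 6.89. For Col4a1 the low points sit on both sides of the dotted line, and the brighter points lie on both sides of 0.

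The interaction of the additives asks whether ASP and MSG together gave something other than the sum of each alone. Here Col5a3, the remaining chain of type V collagen, stood out among the fibrillar chains. Col5a3 was 6.04, 5.97 and 6.06 in the MSG + TFA pools, 6.01, 6.14 and 6.14 in the ASP + TFA pools, 6.29, 6.34 and 6.30 in the ASP + MSG + TFA pools, and 6.14, 6.20 and 6.12 in the TFA pools. The ASP + MSG + TFA pools were above every other pool and the MSG + TFA pools below every TFA pool. The differences from TFA were -0.13 ± 0.07 with MSG, -0.06 ± 0.07 with ASP and 0.15 ± 0.07 with both additives (SE). The interaction for Col5a3 was 0.34 ± 0.10 (SE, 95% interval 0.11 to 0.56, unadjusted p 0.006, adjusted p 0.395 in limma). It was the only 1 of 50 chains with an unadjusted p under 0.05 for the interaction, where 7.39% of all genes had, and 0 passed the adjusted threshold (0.0686% of all genes). The F test over diets gave Col5a3 an unadjusted p of 0.012 and an adjusted p of 0.400 in limma.

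Of the 68 Col5a3 probe sets, 42 had an interaction above 0, 10 of them at an unadjusted p under 0.05, and 1 was below 0 at that p. The means were 0.43 over the 19 brighter and 0.30 over the 49 dimmer probe sets. Leaving out 1 pool at a time kept the interaction between 0.30 and 0.36, at unadjusted p-values of 0.0053 to 0.0182. With the muscle covariate it was 0.22 (unadjusted p 0.238 in limma), with brighter probe sets only 0.43 (0.085) and with the median over probe sets 0.53 (0.011). Of the 14 muscle markers, 11 also had an interaction above 0 at an unadjusted p under 0.05. After Col5a3, the smallest interaction p-values among fibrillar chains were those of Col1a2 at -0.20 ± 0.11 and Col5a1 at 0.12 ± 0.11 (SE). Among basement membrane chains they were those of Lamb3 at 0.16 ± 0.12, Lama2 at -0.16 ± 0.11 and Col4a2 at -0.16 ± 0.12 (SE), at unadjusted p-values of 0.092 to 0.295 in limma over these 5 chains. Type VI collagen, a beaded filament next to cells, gave the smallest p among the collagens that are neither fibrillar nor of basement membranes. Col6a1 had an interaction of 0.19 ± 0.10 and Col6a2 of 0.23 ± 0.13 (SE), at unadjusted p-values of 0.085 and 0.097 in limma, and Col10a1 followed at -0.31 ± 0.21 (SE). Over all 50 chains 33 had an interaction above 0, where 45.1% of all genes had, with a median of 0.034 against -0.020.

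The 23 collagens of other classes held no chain with an unadjusted p under 0.05. Type VI chains were near TFA, with Col6a1 at 6.20, 6.13 and 6.18 in the MSG + TFA pools, all below the TFA pools at 6.24, 6.32 and 6.21, and differing by -0.09 ± 0.07 (SE). Col6a3 also lay below TFA in all MSG + TFA pools, at 6.06, 6.07 and 6.13 against 6.15, 6.21 and 6.13 on TFA, with the nearest pools equal at this rounding, by -0.08 ± 0.07 (SE). Col18a1 and Col15a1, which tether basement membranes to the matrix beside them, differed by 0.12 and 0.13 with ASP, 0.03 and -0.01 with MSG, and 0.13 and -0.01 with ASP + MSG. Col18a1 was 8.93, 8.76 and 8.80 in the ASP + MSG + TFA pools and 8.79, 8.67 and 8.63 in the TFA pools, which overlapped at 1 pool. Col14a1, which binds fibrils, differed by 0.006 with MSG, -0.04 with ASP and 0.03 with both additives. Col13a1, a transmembrane chain, had the smallest p of any member with ASP, at 6.34, 6.50 and 6.67 in the ASP + TFA pools and 6.33, 6.38 and 6.31 in the TFA pools, a difference of 0.16 ± 0.09 (SE, unadjusted p 0.100, adjusted p 0.601 in limma). Col19a1, a fibril-associated chain, differed by -0.11 ± 0.08 with MSG, and Col25a1, a transmembrane chain, by -0.10 ± 0.08 with ASP + MSG (SE). Col10a1, known from growth plate cartilage, and Col8a1, from vessel walls and cornea, had wide errors, with SDs of 0.36 over the ASP + MSG + TFA pools of Col10a1 and over the ASP + TFA pools of Col8a1.

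Within MSG + TFA and within ASP + TFA the class means differed more between pools than they did between the 4 diet means. The mean over the 11 fibrillar chains lay between 6.10 in MSG + TFA pool 2 and 6.24 in ASP + TFA pool 3, and that over the 16 basement membrane chains between 5.95 in ASP + TFA pool 1 and 6.07 in ASP + TFA pool 3. Averaged by diet, the fibrillar chains gave 6.15 for MSG + TFA, 6.18 for ASP + TFA, 6.19 for ASP + MSG + TFA and 6.20 for TFA, and those of the basement membrane chains 6.00, 6.01, 6.01 and 6.00 in the same order. ASP + TFA pool 3 held the highest value of 18 of 50 chains (36%, against 17.4% of all genes). The lowest value was in ASP + TFA pool 1 for 13 chains (26%, against 12.6%) and in MSG + TFA pool 2 for another 13 (26%, against 8.57%). ASP + TFA pool 3 also had the highest mean of 13 pancreatic acinar markers, at 8.94, with 7.99 and 8.33 in ASP + MSG + TFA pools 1 and 2 and 6.03 to 7.38 in the other 9 pools, and the highest mean of 14 portal fibroblast and mesothelial markers, at 6.57 with 6.35 to 6.51 elsewhere. Their part in the chains' values was not tested. Without the 3 pools richest in acinar transcripts, which leaves 2 ASP + TFA pools, the basement membrane median with ASP was -0.041 and 0 chains passed with ASP. The ASP + MSG arm then holds 1 pool, assumed to vary like the other groups.

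**Figure D4:**
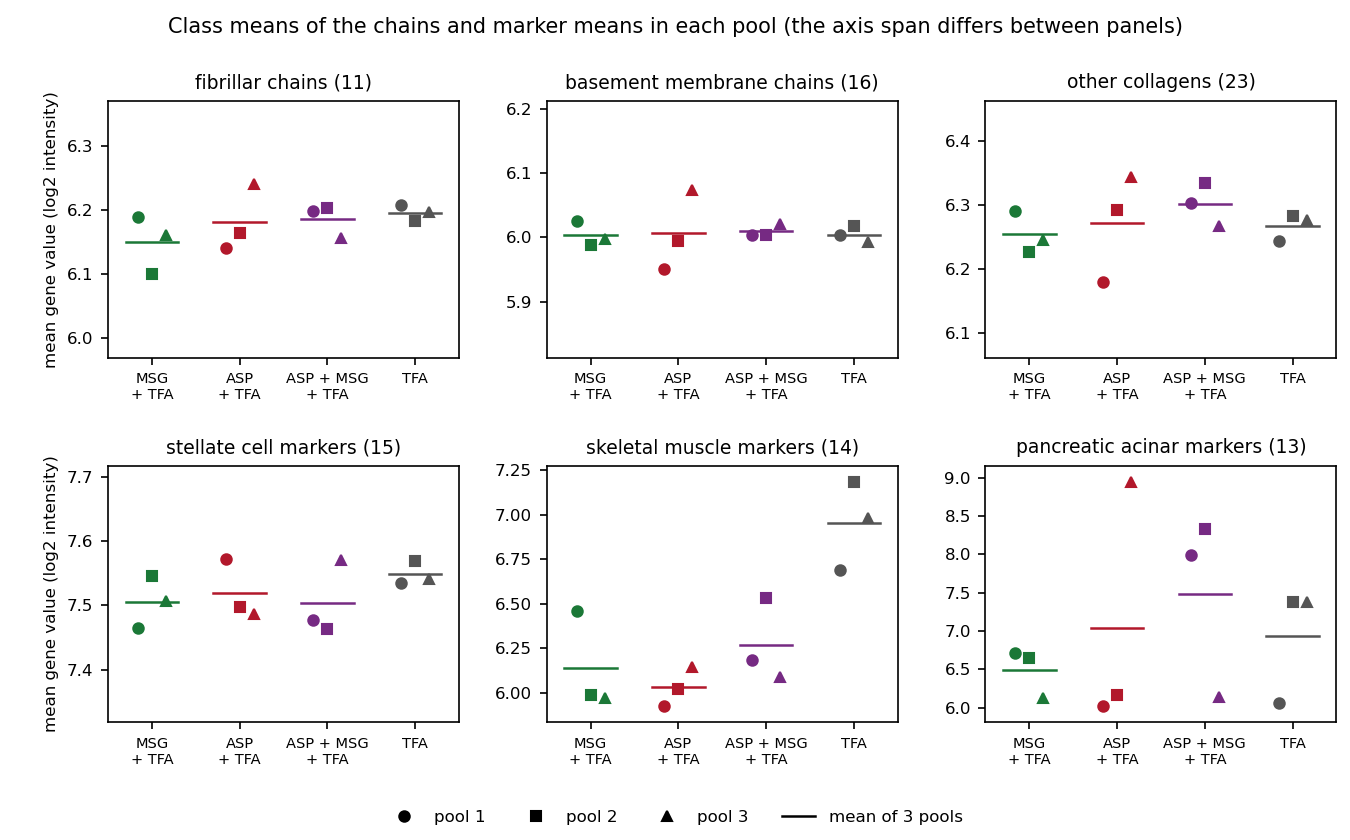
Mean gene value (log2, y axis) in each pool for the fibrillar, basement membrane and other collagen chains and for markers of stellate cells, skeletal muscle and pancreatic acini, by diet, with a symbol per pool and a bar for the mean of 3 pools. The y axes span different ranges. The class means stay within 6.10 to 6.24 (fibrillar) and 5.95 to 6.07 (basement membrane), ASP + TFA pool 3 is highest in both, and the TFA pools are highest in muscle markers.

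Among markers of the cells that make these chains, those of stellate cells and myofibroblasts overlapped between diets in their means. Over 15 stellate cell markers the pool means lay between 7.46 and 7.57, and over 12 myofibroblast markers between 6.60 and 6.69. The mean of the 14 portal fibroblast and mesothelial markers was 6.46, 6.51 and 6.46 in the ASP + MSG + TFA pools, all above the TFA pools at 6.38, 6.37 and 6.45, and overlapped TFA with MSG and with ASP. In these 3 lists 0 genes had an adjusted p under 0.05 in limma. The mean of 10 adipocyte markers was 7.43, 7.61 and 7.43 in the ASP + MSG + TFA pools, all above the TFA pools at 7.31, 7.28 and 7.29. It overlapped TFA with MSG and with ASP, and was lowest in ASP + TFA pool 1 at 7.03. The part of adipocyte transcripts in the chains' values was not tested. The mean of 14 sinusoidal endothelial markers lay between 8.42 and 8.66 and overlapped between diets. Acta2, the smooth muscle actin of activated stellate cells, was 6.50, 6.35 and 6.69 with ASP + MSG and 6.71, 6.82 and 6.75 on TFA. The 12 myofibroblast markers, of which it is 1, did not share this direction. Their median difference with ASP + MSG was 0.057, and 0 of them were lower at an unadjusted p under 0.05 in limma. Des, a filament of stellate and of muscle cells, was 6.17, 5.92 and 5.95 with MSG and 6.26, 6.71 and 6.40 on TFA, a difference of -0.45 at an unadjusted p of 0.004 in limma. In the 3 MSG + TFA pools Des and the muscle mean were both below their TFA values.

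Genes that assemble, cross-link, bind or break down these chains were measured for 105 of 108 on the lists, and 0 passed limma's adjusted threshold in any comparison. At an unadjusted p under 0.05, MSG gave 2 genes above TFA and 0 below (against 5.81% of all genes), ASP gave 3 above and 1 below (10.1%), and the combination gave 7 above and 4 below (10.1%), shares of the 105 that are below or near those of all genes. The nearest to the threshold was Npnt, which encodes nephronectin, an integrin ligand of basement membranes. Npnt was 6.27, 5.94 and 6.28 in the MSG + TFA pools, 6.36, 6.17 and 6.30 in the ASP + TFA pools, 6.63, 6.65 and 6.57 in the ASP + MSG + TFA pools, and 6.02, 5.98 and 6.17 in the TFA pools. Its ASP + MSG + TFA pools were above every other pool, by 0.56 ± 0.10 (SE) against TFA, at an adjusted p of 0.0877 in limma. It was 1 of 12 partners of the basement membrane. Fbln2, which encodes fibulin-2, had an unadjusted p of 0.035 in limma with ASP (-0.20), and Nid2, Hspg2 and Smoc2, for nidogen-2, perlecan and a calcium-binding matrix protein, differed by 0.14 to 0.16 with ASP + MSG at unadjusted p-values of 0.089 to 0.122.

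Of 31 genes of collagen assembly, 4 had an unadjusted p under 0.05 with ASP + MSG, a share near the 10.1% of all genes, and their values are given as a description. Crtap, part of the prolyl 3-hydroxylation complex, was 6.55, 6.47 and 6.72 with ASP + MSG and 6.38, 6.15 and 6.37 on TFA, a difference of 0.28 ± 0.09 (SE). Ppib, the cyclophilin of the same complex, went the other way at -0.27 ± 0.12, and P3h2, a prolyl 3-hydroxylase, at -0.21 ± 0.09 (SE). Serpinh1, the collagen chaperone HSP47, was 6.42, 6.47 and 6.26 with ASP + MSG, all above the TFA pools at 6.03, 6.21 and 6.23, by 0.23 ± 0.10 (SE). Pcolce, which enhances the cleavage of procollagen, was the only gene of this list with an unadjusted p under 0.05 with ASP, at a difference of 0.18. Among 15 receptors, Itga7 and Itga11, integrin chains for laminin and collagen, differed by 0.22 each with ASP + MSG, at unadjusted p-values of 0.012 and 0.026 in limma, and Ddr2, a collagen receptor kinase, by 0.22 with MSG (unadjusted p 0.017).

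Reck, a membrane inhibitor of matrix metalloproteinases, was 7.24, 7.23 and 7.19 in the MSG + TFA pools and 7.02, 6.78 and 6.98 in the TFA pools, a difference of 0.29 at an unadjusted p of 0.005 and an adjusted p of 0.556 in limma. With ASP + MSG Reck was 7.08, 7.26 and 7.15, all above TFA too, by 0.23 ± 0.09 (SE). Among 20 genes of breakdown and its inhibitors it was the only one with an unadjusted p under 0.05 in these comparisons, and Mmp12 and Mmp9, matrix metalloproteinases, differed by 0.17 and -0.14 with MSG and by 0.16 and -0.08 with ASP + MSG. Ogn, a small proteoglycan of fibrils, was 6.62, 6.52 and 6.64 with ASP + MSG, below all TFA pools at 6.97, 6.90 and 6.92, by -0.34 ± 0.10 (SE), at an adjusted p of 0.308 in limma. Lum, for lumican, had an interaction of -0.37 at an unadjusted p of 0.032. In the TGF-beta pathway, the main inducer of collagen genes, Tgfbr1 differed by -0.33 ± 0.10 and Tgfb3 by 0.20 ± 0.09 (SE) with ASP + MSG, at adjusted p-values of 0.322 and 0.479 in limma, and Tgfb1 by -0.17 at an unadjusted p of 0.179.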

How the data were processed

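Liver RNA was hybridised to Affymetrix Mouse Gene 1.0 ST arrays. Per the methods, the authors summarized and background-adjusted probe sets with GCRMA in Partek, quantile-normalized the arrays and filtered noise, and the deposited values are intensities on a linear scale (14.8 to 68604), which were log2-transformed here with no value added. The genome build is not given in the sources used here. Of 241576 probe sets, 212138 had 1 symbol in the platform annotation and were averaged to 20422 gene values, 4672 had several symbols (2 of them of Col10a1, left out) and 24766 had none. Array medians were 6.91 to 6.96. The number of arrays limits the precision. Each p-value sets a difference against the spread between pools, as moderated by limma over all genes, and not against the spread between mice.

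The 4 diets were fitted in a single model over 12 arrays with limma 3.58.1 (R 4.3.3, with data.table, version 1.17.8), with Benjamini-Hochberg adjustment over all genes within each comparison, a threshold of 0.05, and an F test over the 3 contrasts with TFA. Class medians carry no test. The calling was run on simulated gene values with independent noise. This checks the code, and does not show whether changes in dim chains or in mixed pools could be called. Sequences and positions came from RefSeq tables (GRCm38.p6). Tables were joined with pandas 2.3.3 and numpy 2.4.6 in Python 3.11.15, and matplotlib 3.10.9 drew the figures.

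Members named are the chains usually described in liver, and in each class and comparison the 3 with the smallest p. Partner genes came from the 2 with the smallest p per list and comparison, not all of which are printed. Other named genes were chosen after their values were seen. The members, lists, rule and alternatives were chosen with earlier results of these data known. Alternatives were a further quantile normalization, centring on the array median, brighter probe sets only, the median over probe sets, a trend and robust variance, array weights, the replicate number as a block, the 6 arrays of a comparison only, leaving out each array or the 3 pools richest in acinar transcripts, and the muscle marker mean as a covariate.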

Additional observations from a re-analysis of the deposited data

How the results depend on the processing

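The count of 0 chains past the adjusted threshold held for genes and for single probe sets under the alternatives run and without each of the 12 pools. The median over probe sets gives genes only, the 6 arrays of a comparison give neither the interaction nor the F test, and without the 3 acinar-rich pools the ASP + MSG arm has 1 pool. Class medians, all near 0, were less settled. With the mean of the muscle markers in the model, the fibrillar median was 0.020 for MSG, 0.050 for ASP and 0.061 for both additives, the basement membrane median was 0.043, 0.056 and 0.048, and the Col4a1 difference changed sign with MSG (0.05) and ASP (0.14). With brighter probe sets only, the fibrillar median was 0.080 with ASP and 0.047 with ASP + MSG, and the basement membrane median 0.057 and 0.059. With the median over probe sets the basement membrane median was -0.055 with ASP and -0.053 with ASP + MSG. With ASP it was -0.024 under array weights and -0.041 without the 3 acinar-rich pools or without ASP + TFA pool 3 alone. The cause of these shifts was not tested. Leaving out 1 pool gave fibrillar medians of -0.071 to -0.026 with MSG, -0.032 to 0.025 with ASP and -0.049 to 0.0093 with ASP + MSG, and basement membrane medians of -0.013 to 0.0092, -0.041 to 0.028 and 0.0022 to 0.021.

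Deviations of same-numbered pools from their diet means correlated between -0.34 and 0.35 over 18 pairs, with a median of 0.029. Those of differently numbered pools correlated between -0.30 and 0.28 over 36 pairs, with a median of 0.0007. These ranges cannot exclude that the replicate numbers pair the pools. With the replicate block 0 chains passed in any comparison, the class medians were unchanged, and Col4a1 with MSG stayed at -0.21 with an unadjusted p of 0.051 in limma. Most chains are read near the dim end of the arrays, which limits what a change in them could show.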
